A study of Gasterosteus aculeatus with 12 samples.

Results

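The genes described here are the 100 whose kidney expression stood highest in freshwater threespine stickleback kept at full salinity (FW33K) relative to every other library. They were chosen by their values. Of 20860 genes in the deposited table, 15503 averaged 1 FPKM or more across all 12 libraries and were used, and each library was scaled so that the median of these genes was 10. FPKM are fragment counts divided by transcript length and library size, so levels are per length and can be set side by side between genes. All levels below are scaled FPKM unless deposited FPKM are named. The score of a gene was its lowest FW33K value plus 1, divided by the highest value of the other 9 libraries plus 1. Before ranking, 32 of the 15503 genes were left out: HAS2, PI16 and a block of neighbouring identifiers. A symbol was known for 69 of the 100 genes. Another 20 are listed without a symbol in the study's gene table, and 11 are not in that table.

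The study asked how salinity changes gene expression in the stickleback kidney, with the handling of salt and blood pressure in view. Kidney RNA was sequenced from adult females of 4 treatments, with 3 replicates each. FW33K are wild-caught fish of a freshwater lake population kept for 30 days at 33 g/L, FW00K and FW11K are fish of the same population kept for 30 days at 0 and 11 g/L, and SW33K are wild-caught fish of a saltwater bay population kept for 30 days at 33 g/L. SW33K thus differs from FW00K in population and in salinity, which cannot be told apart, and reads of saltwater fish were also aligned with 3 mismatches allowed against 2 for freshwater fish.

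The kidney of a fish in fresh water filters much water and takes salts back from the urine, whereas in sea water little urine is made and divalent ions are secreted into it. Proteins that a cell secretes or places in its membrane enter the endoplasmic reticulum (ER), where they are folded and receive sugar chains, and then pass through the Golgi and vesicles to the surface. The members hold genes of this route, of methionine and sterol metabolism, of the matrix around cells, of transport across membranes and of signalling. Roles given below are those known in mammals.

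The study describes the replicates of a treatment as individual fish. In each group, replicates 2 and 3 resembled each other more than either resembled replicate 1. The median absolute log2 difference over all genes was 0.0676 to 0.0881 between replicates 2 and 3, and 0.327 to 0.548 between replicate 1 and either of them, and the p-values given here are too small if replicates 2 and 3 are not independent fish. The median FPKM of the 15503 genes before scaling was 4.39 to 6.75 in FW33K, 14.4 to 16.7 in FW00K, 10.3 to 11.8 in FW11K and 5.43 to 11.0 in SW33K. The value of 5.43 was that of SW33K replicate 1. In deposited FPKM, 78 of the 100 members still lay above all 9 other libraries in every FW33K library, and 22 did not. The 22 included PTTG1IP (2 of 2), NDUFA4 (2 of 2), DDK3 (1 of 2), RFTN2, EGLN2, SYT14 (2 of 2) and IDI2. Also among them were CPNE3 (3 of 4), GULP1, CDK5RAP3, COMMD5, SLC6A15 and ENSGACG00000009620. Over all 15503 genes, FW33K lay above the other 9 libraries for 6.68% after scaling and for 0.916% in deposited FPKM. The rule used this contrast, so nothing is read from these shares. FPKM hold no read counts, so the number of reads behind each value is unknown and no counting error can be given. The study does list the reads used in mapping per library. FW33K replicate 1 and FW11K replicate 1 had far fewer of them than any other library.

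The members together took 1.16% to 1.23% of the FPKM sum of an FW33K library, against 0.177% to 0.385% in the other 9. Mean FW33K levels ran between 4.52 for GALNT3 and 2272 for the unnamed gene ENSGACG00000015012, with a median of 31.5. At least 100 was reached by 25 members, 58 lay between 10 and 100, and 17 lay under 10. The FW33K mean was at least 10 times that of the next highest group in 15 members, 5 to 10 times in 35 and 2 to 5 times in 50, with a median of 5.01 times. Within FW33K the SD was 14.4% of the mean in the median member. No member was under 1 FPKM in any FW33K library, while 21 to 31 members were under 1 FPKM in each of the other libraries. In 7 members all 9 other libraries were under 1 also after scaling. The rule set FW33K against the other libraries, and a member near 0 elsewhere passed the filter on the mean only through FW33K. These shares, ratios and counts thus follow from the choice of genes, and nothing is read from them.

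**Figure D1:**
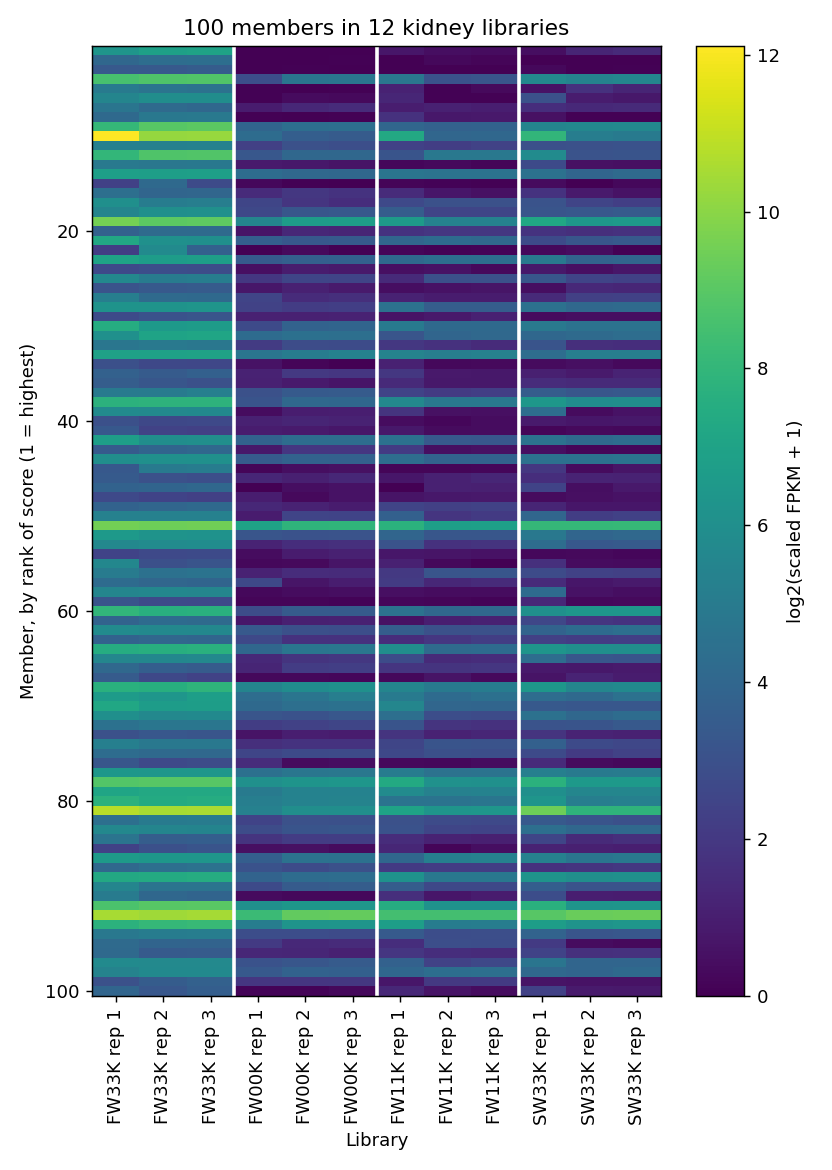
Levels of the 100 members, ordered by score, in the 12 libraries as log2(scaled FPKM + 1), with the 3 FW33K libraries at the left. Every member is highest in FW33K by construction, and SW33K replicate 1 is the highest of the other 9 libraries in 51 members.

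The gene with the highest score, 29.4, carries no symbol. ENSGACG00000004242 was at 79.2, 119 and 124 in FW33K, at 0, 0.0228 and 0.0208 in FW00K, at 0.650, 0.358 and 0.326 in FW11K, and at 0.381, 1.42 and 1.73 in SW33K. It was thus near the bottom of the scale everywhere outside FW33K. RASD1 (2 of 2), 1 of 2 copies of a small GTPase gene that glucocorticoids induce, came next with a score of 13.8. It was at 15.3, 19.4 and 19.7 in FW33K and at most 0.182 in any other library, and it was listed at 0 in all 3 SW33K libraries. Its other copy, RASD1 (1 of 2), was no member. That copy averaged 611 in FW33K, 79.0 in FW00K, 69.7 in FW11K and 380 in SW33K, so it was well above RASD1 (2 of 2) in every group, SW33K included. Reads of near-identical copies can be divided between them by the estimation, and 26 of the members are labelled as 1 of several copies.

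SERPINI1 encodes neuroserpin, an inhibitor of the protease tissue plasminogen activator. It was at 381, 434 and 459 in FW33K, at 6.51, 24.9 and 26.3 in FW00K, at 27.2, 7.25 and 8.27 in FW11K, and at 51.7, 42.4 and 46.8 in SW33K. QPCT, the enzyme that closes the N-terminal glutamine of secreted peptides into a ring, was at 25.3, 17.2 and 15.6 in FW33K and between 0.924 and 2.04 in all other libraries. QPCT and MOCS3, another member, which acts in making the molybdenum cofactor, are next to each other on chromosome 15 of the RefSeq assembly fGasAcu3.hap1.1. They were the only pair within 5 genes of each other among the 29 members whose symbol matched 1 RefSeq gene. MOCS3 was at 61.6, 66.3 and 67.5 in FW33K, at 9.99, 12.8 and 12.7 in FW00K, at 19.1, 13.2 and 13.2 in FW11K and at 21.6, 22.2 and 23.3 in SW33K.

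**Figure D2:**
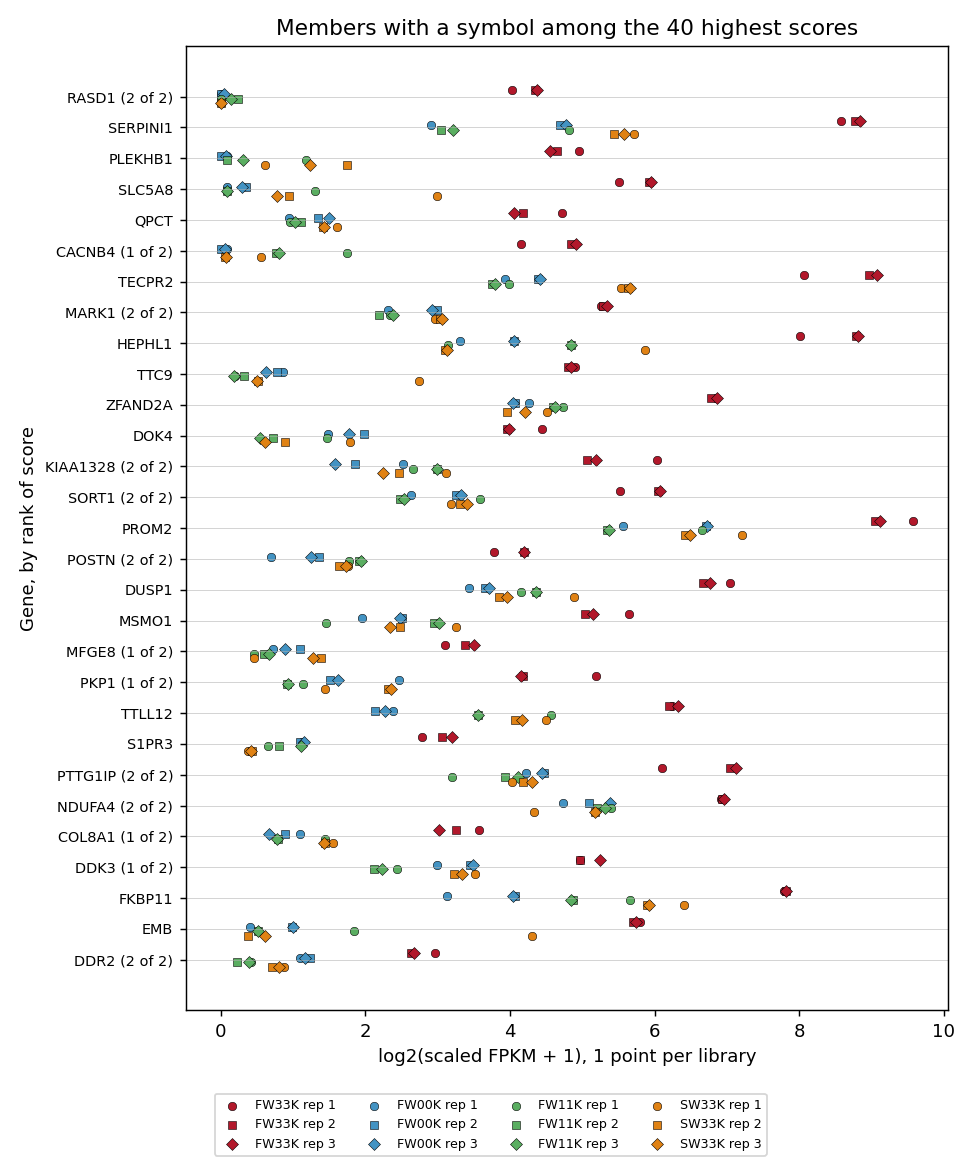
The 29 members with a symbol among the 40 highest scores, with 1 point per library on a log2(scaled FPKM + 1) axis, coloured by group and with a marker for each replicate. The FW33K points lie to the right of all others for every gene, by the rule, and the nearest other point is SW33K replicate 1 for 13 of them, HEPHL1, SLC5A8, TTC9 and EMB included.

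Genes of transport across membranes included SLC5A8, which carries lactate and short-chain fatty acids with sodium, and EMB (embigin), which brings monocarboxylate transporters to the membrane. SLC5A8 was at 44.5, 59.7 and 60.6 in FW33K, at 0.0644, 0.271 and 0.231 in FW00K, at 1.48, 0.0656 and 0.0598 in FW11K, and at 6.92, 0.921 and 0.714 in SW33K. EMB was at 54.4, 51.0 and 52.6 in FW33K, at 0.326, 0.974 and 1.01 in FW00K, at 2.58, 0.435 and 0.432 in FW11K, and at 18.8, 0.299 and 0.530 in SW33K. Both genes were thus under 3 in all libraries outside FW33K except SW33K replicate 1. HEPHL1, a copper-dependent oxidase of iron, was at 257, 440 and 450 in FW33K and at 57.3, 7.61 and 7.75 in SW33K, while the 6 FW00K and FW11K libraries lay between 7.81 and 27.8. CACNB4 (1 of 2), a regulatory subunit of voltage-gated calcium channels, was at 16.9, 27.8 and 29.2 in FW33K and at most 2.36 elsewhere. SLC6A15, a carrier of neutral amino acids, stood at the low end of the list with 7.02, 10.7 and 12.6 in FW33K, and the highest of the other libraries was FW11K replicate 3 at 3.14.

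The role of the secretory route, given by hand, held 7 members. It is no full count of the route, since QPCT, which acts on secreted peptides, was not placed in it. FKBP11, a prolyl isomerase of the ER, was at 221, 224 and 224 in FW33K, at 7.74, 15.9 and 15.5 in FW00K, at 49.6, 28.3 and 27.7 in FW11K, and at 83.5, 58.6 and 59.8 in SW33K. TUSC3, a subunit of the complex that adds sugar chains to new proteins, averaged 31.0 ± 4.66 in FW33K, 2.33 ± 0.193 in FW00K, 6.70 ± 1.70 in FW11K and 7.61 ± 4.07 in SW33K (SD, n = 3 each). Both ER genes had their lowest mean in FW00K, and the SW33K and FW11K libraries of TUSC3 overlapped. GALNT3, which starts mucin-type sugar chains in the Golgi, was low in all groups, at 5.31, 4.35 and 3.91 in FW33K and under 1 elsewhere. YIPF2, a Golgi membrane protein, averaged 194 in FW33K and 68.3 in SW33K. SORT1 (2 of 2), the sorting receptor sortilin, averaged 58.9 in FW33K and between 6.81 and 8.86 in the other groups. NUCB2 (2 of 2), the precursor of the peptide nesfatin, averaged 189 in FW33K and between 24.0 and 50.8 in the others, and SYT14 (2 of 2), of the synaptotagmin family, averaged 24.6 in FW33K and between 4.17 and 8.25 in the others. The second copy, NUCB2 (1 of 2), was no member, at 36.8, 51.3 and 51.0 in FW33K against 49.97, 33.0 and 37.1 in SW33K, so these groups overlapped.

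MAT2A and GNMT lie on either side of S-adenosylmethionine, the methyl donor of the cell: MAT2A makes it and GNMT spends it on glycine. MAT2A (1 of 2) was at 1793, 1462 and 1534 in FW33K, at 38.7, 62.9 and 61.9 in FW00K, at 128, 78.0 and 80.8 in FW11K, and at 694, 232 and 233 in SW33K. GNMT was at 466, 494 and 498 in FW33K, at 66.6, 76.9 and 80.1 in FW00K, at 163, 68.2 and 66.6 in FW11K, and at 216, 93.7 and 92.6 in SW33K. In both genes replicate 1 was the highest library of FW11K and of SW33K. Of 2 genes of sterol synthesis, MSMO1, which removes methyl groups from the sterol ring, averaged 38.4 ± 9.27 in FW33K and 4.06 to 5.73 in the other groups. IDI2, an isomerase of the isoprenoid building block, averaged 152 ± 13.7 in FW33K and 37.6 to 52.3 in the others.

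DUSP1, a phosphatase that turns off MAP kinases, and ZFAND2A, which is induced by arsenite and acts at the proteasome, belong to a list of stress genes. ZFAND2A was at 114, 108 and 115 in FW33K and between 14.6 and 25.6 in all other libraries. DUSP1 was at 130.7, 101.1 and 108.4 in FW33K and between 9.78 and 28.6 elsewhere. The nearest other library was FW11K replicate 1 for ZFAND2A and SW33K replicate 1 for DUSP1. ZBTB16 (2 of 2), a zinc finger gene that steroid hormones induce, was at 7.73, 5.65 and 5.29 in FW33K and at 1.60 in SW33K replicate 1, and it was under 0.25 in the other 8 libraries.

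Among genes of the matrix, POSTN (2 of 2), the matrix protein periostin, averaged 15.8 ± 2.64 in FW33K and 1.19 to 2.68 in the other groups. COL8A1 (1 of 2), a chain of collagen VIII, averaged 8.83 ± 1.90 in FW33K and 0.863 to 1.78 in the others, and ITGA7, a receptor for laminin, averaged 16.02 ± 2.32 in FW33K and 0.898 to 3.37 in the others. MFGE8 (1 of 2), a secreted protein that binds phosphatidylserine, averaged 9.09 ± 1.36 in FW33K and 0.496 to 1.14 in the others. Its second copy ran the other way. MFGE8 (2 of 2) was at 4.92, 3.14 and 3.31 in FW33K and at 11.8, 13.4 and 12.9 in FW00K (log2 difference -1.54 ± 0.17 SE, limma adjusted p = 0.000134).

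Signals and receptors were members at low levels, between 5.13 and 19.6 in FW33K. S1PR3, a receptor for sphingosine 1-phosphate, was at 5.92, 7.35 and 8.21 in FW33K, 1.15 to 1.23 in FW00K, 0.569 to 1.15 in FW11K and 0.298 to 0.352 in SW33K. EDN2, a peptide of the endothelin family that narrows vessels, was at 15.9, 11.1 and 9.97 in FW33K, 1.42 to 3.77 in FW00K, 2.59 to 2.83 in FW11K and 0.744 to 0.836 in SW33K. DDR2 (2 of 2), a receptor kinase that binds collagen, averaged 5.79 in FW33K and 1.25 in FW00K, the next highest group. In the 8 genes of this role, which hold DOK4, NMUR1 (1 of 2), BMP2 and RASD1 (2 of 2) among others, the next highest group was never SW33K. This depends on the grouping, since the receptors ITGA7 and SORT1 (2 of 2), placed in other roles, had SW33K next. Roles were given to genes with these values known, and no test of the roles was made.

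The other 36 members with a symbol had FW33K means between 5.82 and 616, and SW33K was the next highest group in 27 of them. PROM2, of the prominin family of membrane protrusions, stood highest of these at 762, 530 and 556 in FW33K, with 39.7 to 147 in the other libraries. TECPR2, which acts in autophagy, was at 266, 500 and 540 in FW33K and 45.3, 48.4 and 49.8 in SW33K, and under 21 in FW00K and FW11K. Members of this set with scores among the 40 highest also were PLEKHB1, MARK1 (2 of 2), TTC9, KIAA1328 (2 of 2), PKP1 (1 of 2), TTLL12, PTTG1IP (2 of 2), NDUFA4 (2 of 2) and DDK3 (1 of 2), as the study's table spells it. Of these, NDUFA4 (2 of 2), a subunit of the respiratory chain, had the smallest ratio of the FW33K mean to the next group mean, 3.15. It was at 120, 121 and 124 in FW33K against at most 41.1 elsewhere. In deposited FPKM this gene was at 52.6, 81.7 and 75.7 in FW33K and at 42.7, 49.0 and 58.3 in FW00K, so these groups overlapped. Further down stood TEAD4, APOE (2 of 2), NPDC1, ZNF683, RFTN2, CTSE, CSRP2, SLC04A1 (so spelled), EGLN2, MACC1, PDK3, RPRD2 (2 of 2), ACAP3 (2 of 2), CPNE3 (3 of 4), CPNE3 (2 of 4), WRN, ARF3, GULP1, CDK5RAP3, MEF2A and COMMD5, besides MOCS3.

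The 31 members without a symbol had FW33K means between 5.65 and 2272, and 11 of them were among the 40 highest scores. ENSGACG00000015012, the most abundant member, was at 4432, 1175 and 1209 in FW33K, at 18.8, 11.3 and 10.1 in FW00K, at 158, 14.8 and 15.4 in FW11K, and at 253, 34.2 and 31.3 in SW33K. In every group replicate 1 was its highest library. ENSGACG00000009620, the next most abundant of these, was far more even, at 1454, 1356 and 1413 in FW33K and 300.3 to 676 in the others. In deposited FPKM it was at 639, 915 and 865 in FW33K and at 503, 870 and 867 in FW00K, so these groups overlapped. ENSGACG00000005923 varied most within FW33K, at 3.62, 54.4 and 12.2, with all other libraries under 0.4.

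At the end of the list were COMMD5 (score 1.96, lowest FW33K value 41.2 and highest other value 20.6), SLC6A15 (1.94, 7.02 and 3.14) and ENSGACG00000012832 (1.94, 8.68 and 4.001). Just outside were ENSGACG00000018997 (score 1.92, lowest FW33K value 4.88 and highest other value 2.06), SCG3 (1.91, 20.6 and 10.3) and PTPRS (1 of 2) (1.91, 2.91 and 1.05). No gap in the score separated the 2 sets. Of the genes left out beforehand, HAS2 would have ranked 1 with 621, 958 and 982 in FW33K, B3GNT1 would have ranked 9 and ENSGACG00000019053 76, and PI16 would have ranked 144 and not been a member.

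Outside FW33K, the members stood highest in SW33K more often than in the other groups: by group means SW33K was next in 66 members, FW00K in 17 and FW11K in 17. Over all 15503 genes SW33K had the highest mean of these 3 groups in 38.1%, FW00K in 27.5% and FW11K in 34.5%. A single library held much of this. SW33K replicate 1 was the highest of the 9 other libraries in 51 members, FW11K replicate 1 in 12, and no other library in more than 9. After scaling, SW33K replicate 1 lay above both other SW33K libraries in 71 members, against 46.6% of all genes. Its scaling factor was 1.84, against 0.910 and 0.947 for SW33K replicates 2 and 3. In deposited FPKM the median member was at 4.12 in this library, against 4.54 and 4.29 in those. On the log2(scaled FPKM + 1) scale, SW33K replicate 1 was over 2-fold above the mean of replicates 2 and 3 in 23 members. It was over 2-fold below that mean in 0, while 4.42% of all genes were over 2-fold above. FW11K replicate 1 showed the same for 22 members, with 7 over 2-fold below, against 11.4% of all genes. In FW33K itself, 7 members were over 2-fold above and 3 over 2-fold below, and in FW00K 2 were above and 6 below.

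The clearest case, chosen after its values were seen, was CTSE, the protease cathepsin E. It was at 44.3, 47.1 and 46.2 in FW33K, at 17.6, 0.509 and 0.381 in SW33K, and under 0.43 in all FW00K and FW11K libraries. Without SW33K replicate 1 its score would be 30.0 in place of 2.43, and that of EMB 14.5 in place of 2.62. In 14 members SW33K replicates 2 and 3 were both under 1 while replicate 1 was at 1 or above. The list itself rests on this library: without SW33K replicate 1, 62 of the 100 genes were again among the 100 highest scores, and without FW33K replicate 1, 69 were. With this library left out, an alternative chosen after seeing the data, SW33K was the next highest group in 47 members, FW00K in 22 and FW11K in 31, against 36.9%, 28.1% and 34.9% of all genes. Since the members are high in FW33K, the label of SW33K replicate 1 was set against its values. Over all genes its median absolute log2 difference was 0.327 and 0.331 from the other SW33K libraries and 0.419 to 0.453 from the FW33K libraries. Over all genes the library was thus nearest to its own group. Over the members the difference was 0.459 and 0.498 from the other SW33K libraries and 1.75 to 2.002 from the FW33K libraries. The rule kept only genes that were lower in this library than in FW33K, so nothing on the label is read from the members. Every matched marker of podocytes and tubules was lower in SW33K replicate 1 than in SW33K replicates 2 and 3. NPHS1 was at 6.81 against 15.2 and 15.3, and SLC34A1 at 18.9 against 48.7 and 47.2. What sets this library apart from the other SW33K fish was not tested.

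**Figure D3:**
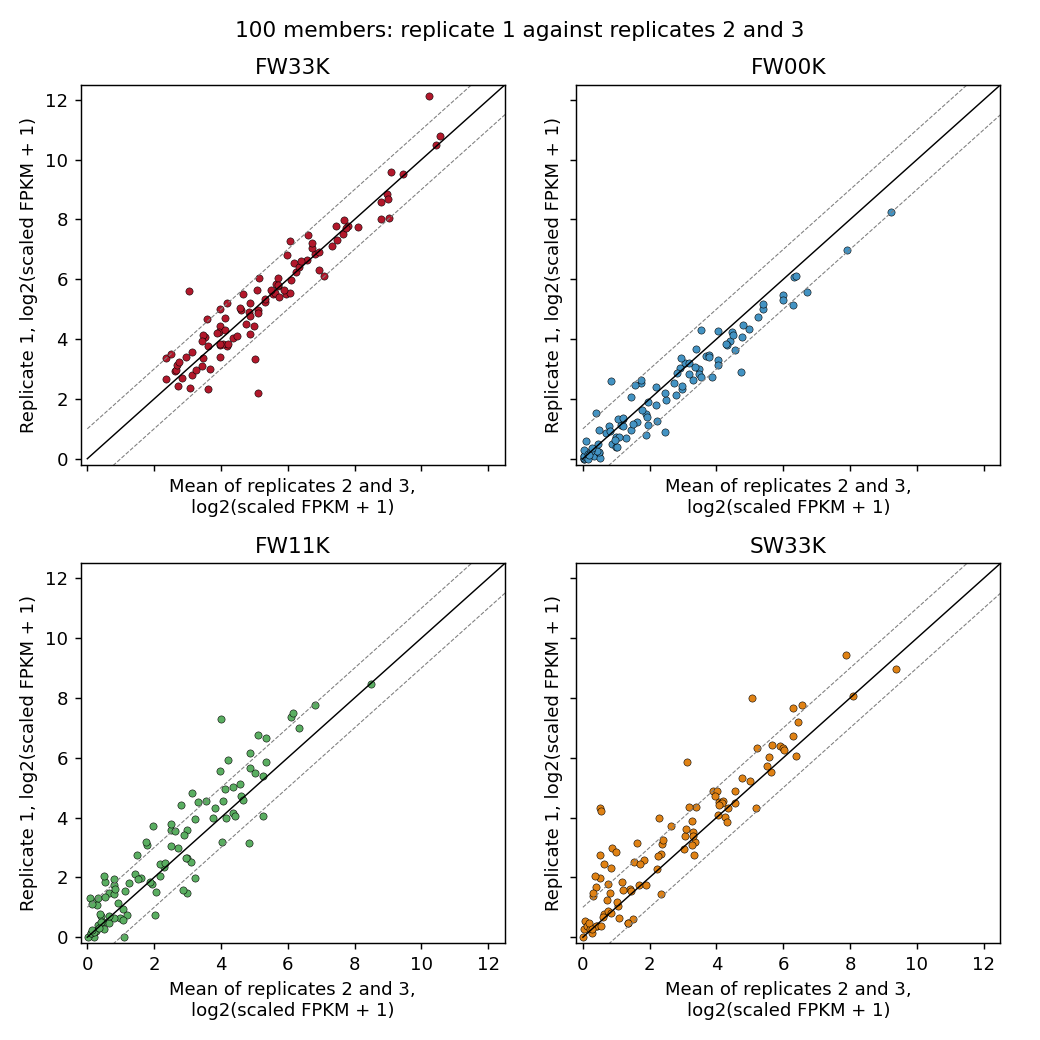
Each member in replicate 1 against the mean of replicates 2 and 3 of the same group, on log2(scaled FPKM + 1) axes, with the line of equality and dashed lines at a 2-fold difference. In SW33K, 23 members lie above the upper dashed line and 0 below the lower one, and in FW11K 22 lie above and 7 below.

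Whether the members also differed between groups that the rule did not set against each other was tested with limma on log2(scaled FPKM + 1), all 12 libraries in one fit, at a Benjamini-Hochberg adjusted p under 0.01 over the 15503 genes. The rule did use the highest of these 9 libraries as a bound. In SW33K against FW00K, 14 members were higher in SW33K and 3 lower, where 11.6% of all genes were higher and 8.50% lower. Members near 0 outside FW33K passed the filter on the mean only through FW33K and could hardly be called lower. The counts of members thus follow in part from the choice of genes. Nothing is read from them beside the shares of all genes, in this and the following comparisons. The median log2 difference was 0.41 over the members and 0.03 over all genes. Summed levels of cell type markers are given for these groups too. Only genes the study had selected as differing in these samples could be matched, so differences in the sums are not independent evidence. The podocyte and tubule sums of SW33K overlapped those of FW11K. The summed blood-forming markers were at 179 to 202 in SW33K, 971 to 1379 in FW00K and 1459 to 2878 in FW11K, and those of podocytes at 63.4 to 126 in SW33K, 173 to 270 in FW00K and 93.7 to 106 in FW11K. Tubule markers summed to 450 to 754 in SW33K, 852 to 1071 in FW00K and 512 to 734 in FW11K, and muscle markers to 3.04 to 4.87 in SW33K, 21.7 to 246 in FW00K and 5.33 to 25.3 in FW11K. Their part in the calls between SW33K, FW11K and FW00K was not tested.

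CSRP2, a LIM protein of the cytoskeleton, differed most. It was at 66.2, 81.5 and 82.1 in SW33K and at 6.11, 9.98 and 10.1 in FW00K (log2 difference 3.02 ± 0.22 SE, limma adjusted p = 3.83e-05). MAT2A (1 of 2) was higher by 2.63 ± 0.40 (adjusted p = 0.000776) and FKBP11 by 2.33 ± 0.29 (adjusted p = 0.000276), and in all 3 genes the SW33K and FW00K libraries did not overlap. Without SW33K replicate 1 these differences were 3.12, 2.11 and 2.16, with limma adjusted p of 9.81e-05, 0.000795 and 0.00129. The other 11 higher members were ZNF683, TTLL12, CDK5RAP3, MACC1, TECPR2, TUSC3, NPDC1, WRN, ITGA7, SLC04A1 and MOCS3. Members lower in SW33K included SLC6A15, at 0.581, 0.530 and 0.487 against 2.75, 2.82 and 2.94 in FW00K (-1.32 ± 0.32, adjusted p = 0.00939), and EDN2 (-1.07 ± 0.26, adjusted p = 0.00872). SLC6A15 and EDN2 were no longer called without SW33K replicate 1 (-1.35 and -1.06, adjusted p = 0.0235 for both). In deposited FPKM, where the median of all genes was 0.69 lower in SW33K on the log2 scale, 5 members were higher and 8 lower. The count was 0 with replicates 2 and 3 averaged as 1 sample, where 25 members had an unadjusted p under 0.05, and it was 10 without FW00K replicate 2, FW00K replicate 3 or SW33K replicate 2, 11 without SW33K replicate 3 and 27 without FW11K replicate 1.

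In FW11K against FW00K, where the population is the same, 3 members were higher in FW11K and 3 lower, against 4.57% and 3.46% of all genes, and the median log2 difference was 0.12 over the members and 0.06 over all genes. TTLL12, of the tubulin ligase family, was at 22.6, 10.8 and 10.7 in FW11K and at 4.22, 3.40 and 3.81 in FW00K (1.63 ± 0.25, adjusted p = 0.0023). FKBP11 was higher by 1.38 ± 0.29 (adjusted p = 0.00913) and the unnamed ENSGACG00000005894 by 1.24 ± 0.19 (adjusted p = 0.00235). DDK3 (1 of 2) was lower by -1.04 ± 0.17 (adjusted p = 0.00317) and DDR2 (2 of 2) by -0.82 ± 0.17 (adjusted p = 0.00896). Most members thus had no called difference between 0 and 11 g/L, and the same held for most of all genes. In deposited FPKM 0 members were higher and 4 lower. The count was 0 without FW00K replicate 2 or FW00K replicate 3, with 18 and 17 members at an unadjusted p under 0.05, it was 1 without FW11K replicate 2 or 3, 3 without FW33K replicate 2, SW33K replicate 2 or SW33K replicate 3, and 10 without FW11K replicate 1.

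In SW33K against FW11K, 10 members were higher in SW33K and 2 lower, against 9.91% and 11.2% of all genes, with a median log2 difference of 0.40 over the members and 0.03 over all genes. CSRP2 was higher by 2.04 ± 0.22 (adjusted p = 0.000118), MAT2A (1 of 2) by 1.84 ± 0.40 (adjusted p = 0.00532) and TECPR2 by 1.76 ± 0.25 (adjusted p = 0.000607). Lower were ENSGACG00000005894, at 1.35, 0.639 and 0.679 in SW33K and 4.65, 3.88 and 4.19 in FW11K (-1.49 ± 0.19, adjusted p = 0.000333), and EDN2 (-1.05 ± 0.26, adjusted p = 0.00935). ENSGACG00000005894 was thus higher in FW11K than in FW00K and than in SW33K, and these comparisons share the FW11K libraries. The others called were ITGA7, ZNF683, WRN, MACC1, SLC04A1, MARK1 (2 of 2) and DDK3 (1 of 2), all higher. In deposited FPKM 4 members were higher and 3 lower. The count was 5 without FW11K replicate 2 or 3, 6 without SW33K replicate 2, 7 without SW33K replicate 3 and 25 without FW11K replicate 1. Over the 3 comparisons, 21 members were called at least once and 79 never, while 33.2% of all 15503 genes were called at least once. Members near 0 outside FW33K could hardly be called here, and the rule bounded these same libraries. Nothing is thus read from the members' share beside that of all genes.

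**Figure D4:**
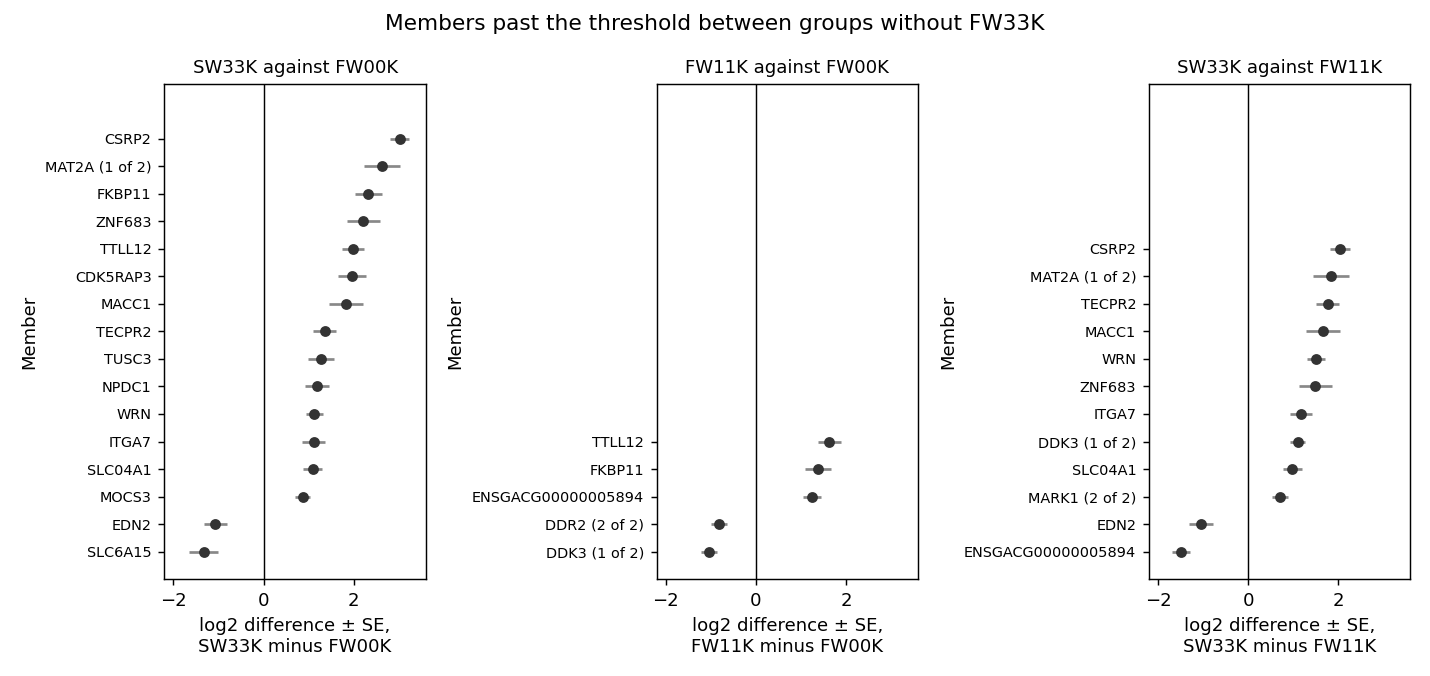
Log2 differences with their SE of the members reported by name or identifier that were past an adjusted p of 0.01 in the comparisons without FW33K, on log2(scaled FPKM + 1). SW33K against FW00K shows 14 members to the right of 0 and 2 to the left, FW11K against FW00K shows 3 and 2, and SW33K against FW11K shows 10 and 2.

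Other genes of the same routes, outside the 100, were compared between FW33K and FW00K. They were found by symbol, and symbols were known only for genes that the study had selected as differing in these samples, so their counts are not independent evidence of a direction. Of 143 genes of these routes, spiggin and mucins not counted, 126 were higher in FW33K and 11 lower, against 12.0% and 6.98% of all genes. All 68 genes of ER protein entry and folding were higher, several of them copies of 1 symbol, with a median log2 difference of 2.69. DNAJC10, a reductase of misfolded proteins, had the largest of these, averaging 932.5 in FW33K and 18.8 in FW00K (5.65 ± 0.81 SE, limma adjusted p = 0.000536). PDIA4, a disulfide isomerase, averaged 1019 in FW33K and 38.4 in FW00K, and XBP1, the factor that drives the ER stress response, averaged 1368 in FW33K and 57.3 in FW00K. In SW33K DNAJC10 averaged 607, PDIA4 814 and XBP1 690, so these genes were high in both groups kept at 33 g/L.

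The Golgi list had 15 higher, 3 lower and 2 not called, with SLC35A3 (2 of 2), a carrier of nucleotide sugars, at 4.92 ± 0.74 (adjusted p = 0.000685) and GCNT3 (2 of 2), a branching enzyme of mucin chains, at -2.01 ± 0.25 (adjusted p = 0.000222). Vesicle traffic had 27 higher and 1 lower. RAB26 (2 of 2), a small GTPase of secretory granules, averaged 335 in FW33K, 9.22 in FW00K and 77.8 in SW33K (5.025 ± 0.63, adjusted p = 0.000238), and SCG3, a granule protein just outside the 100, averaged 33.8 in FW33K, 0.352 in FW00K and 9.40 in SW33K. Of 9 genes of methionine and cysteine metabolism besides MAT2A and GNMT, 5 were higher, 1 lower and 3 not called. CDO1, which oxidises cysteine, was higher by 5.54 ± 0.62 (adjusted p = 0.000128), and AHCYL2 (2 of 2), related to the enzyme that clears S-adenosylhomocysteine, was lower by -5.09 ± 0.57 (adjusted p = 0.000131).

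Sterol synthesis had 2 higher of 2, stress genes 2 higher and 1 lower of 3, and genes of the steroid response 2 higher, 3 lower and 1 not called of 6. FKBP5, a chaperone partner that glucocorticoids induce, was the largest of the last at 3.55 ± 0.58 (adjusted p = 0.00111), while the mineralocorticoid receptor gene NR3C2 was lower by -1.55 ± 0.20 (adjusted p = 0.000261). The matrix list had 5 higher, 1 lower of 6, and of these HAS2 and PI16 had been left out of the ranking. The only matched gene of organic osmolytes, MIOX, which breaks down inositol, was lower by -6.49 ± 0.42 (adjusted p = 1.08e-05), and the only matched gene of the list of spiggin and mucins, VWF, by -1.66 ± 0.19 (adjusted p = 0.000167). In deposited FPKM, where the median of all genes was 1.20 lower in FW33K on the log2 scale, 60 of the 143 were higher and 13 lower. With replicates 2 and 3 averaged, 0 passed, while 140 had an unadjusted p under 0.05.

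**Figure D5:**
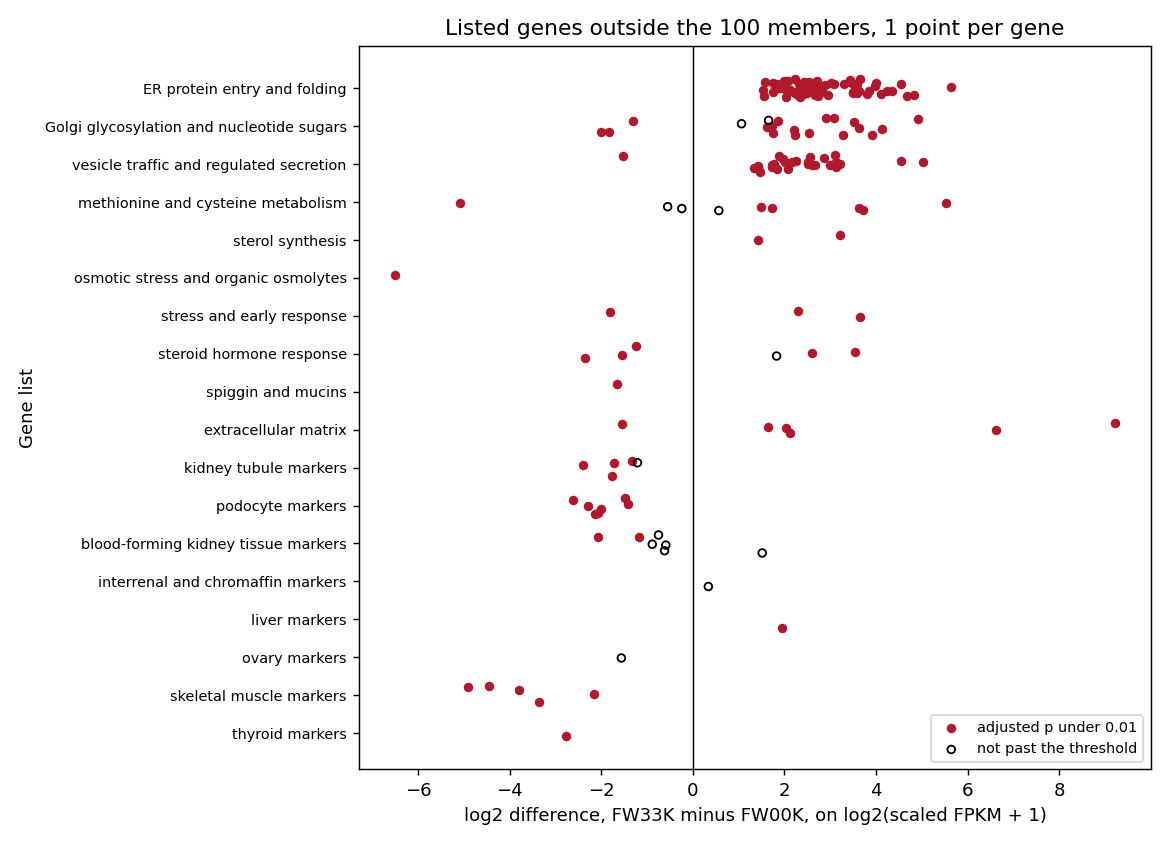
Log2 difference of FW33K minus FW00K on log2(scaled FPKM + 1) for the listed genes outside the 100 members, 1 point per gene and 1 row per list, filled where the adjusted p was under 0.01. The 68 matched genes of ER entry and folding all lie to the right of 0, and the 7 matched podocyte and 5 matched skeletal muscle genes to the left. Symbols were known only for genes that the study had selected as differing.

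Markers of cell types were set against the same contrast. Only genes the study had selected as differing could be matched, so a marker that did not differ could not appear. Matched were 5 of 10 podocyte, 5 of 32 tubule, 7 of 28 blood-forming and 4 of 13 skeletal muscle symbols, some with several copies. Over all genes 6.98% were lower in FW33K. All 7 matched podocyte genes were lower in FW33K than in FW00K, among them NPHS1 of the filtration slit at -2.62. Their summed levels were 53.4 to 73.3 in FW33K and 173 to 270 in FW00K. Of 5 tubule genes, 4 were lower and SLC12A3, the thiazide-sensitive carrier, was not called, with summed levels of 359 to 369 in FW33K and 852 to 1071 in FW00K. These kidney markers were thus present in every library. Of 7 genes of the blood-forming tissue, 2 were lower and 5 not called, with sums of 649 to 757 in FW33K and 971 to 1379 in FW00K. All 5 skeletal muscle genes were lower, with sums of 0.954 to 2.13 in FW33K and 21.7 to 246 in FW00K. Single genes stood for the remaining lists. IYD, the 1 matched symbol of 6 in the thyroid list, was lower (-2.76), and by itself it does not show thyroid tissue. AHSG of the liver list was higher (1.95, with sums of 3.81 to 4.86 in FW33K and 0.170 to 0.498 in FW00K). STAR of the interrenal and DDX4 of the ovary were not called, with 1 FW33K library at 0 for each. No gene of the corpuscles of Stannius was matched. In bulk tissue, fewer cells of a type and less RNA per cell cannot be told apart, and the part of these shifts in the levels of the members was not tested.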

How the data were processed

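Kidney RNA-seq of 12 libraries was used. The authors discarded whole reads holding any base of quality below 20, trimmed the others to 75 bases, aligned these to the masked BROADS1 genome with TopHat2 2.0.3 and estimated FPKM with Cufflinks 2.0.2, the versions being those of the submitters' processing notes. The deposited table holds FPKM per Ensembl gene. Symbols came from the study's gene table.

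Genes that averaged 1 FPKM or more were kept, each library was scaled to a median of 10, and log2(scaled FPKM + 1) was fitted with limma 3.58.1 (lmFit, eBayes with trend) in R 4.3.3, with 1 mean per group and no covariate, at a Benjamini-Hochberg adjusted p under 0.01. Fold changes on this scale understate those of low genes. FW33K chose the members, so its differences from the others are given without a test. The fit was tested on simulated data in which each library was drawn independently. That test says nothing on p-values where replicates 2 and 3 are alike, as they were here. Descriptions and figures used Python 3.11.15, pandas 2.3.3 and matplotlib 3.10.9.

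Named genes are the members with a symbol among the 40 highest scores, those in a list, the 3 at the end and the 3 beyond, and the 3 called members with the largest change each way. A few genes that enter the counts are not reported here by name. The members and lists were chosen with earlier results of these data known. The lists were ER protein entry and folding, Golgi glycosylation, vesicle traffic, methionine and cysteine metabolism, sterol synthesis, osmolytes, stress, steroid response, spiggin and mucins, matrix, and markers of tubule, podocyte, blood-forming tissue, interrenal, corpuscles of Stannius, liver, ovary, skeletal muscle and thyroid. Alternatives were no scaling, median-ratio scaling, quantile normalization, a pseudocount of 0.1, no filter, a mean of at least 5 FPKM, only the libraries compared, a replicate block, replicates 2 and 3 averaged, a threshold of 0.05 and each library left out in turn.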

Additional observations from a re-analysis of the deposited data

How the results depend on the processing

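None of the 17 single-gene differences that were followed changed direction under any alternative. Of 368 such values, 257 stayed past the threshold and 111 did not. The counts of called members were 0 in all 3 comparisons with replicates 2 and 3 averaged (25, 12 and 17 members at an unadjusted p under 0.05 in limma for SW33K against FW00K, FW11K against FW00K and SW33K against FW11K), and 30, 14 and 29 at an adjusted p under 0.05. With only the libraries compared they were 0 for FW11K against FW00K (26 at an unadjusted p under 0.05) and 6 for SW33K against FW11K, which was 7 in deposited FPKM. Leaving out 1 library gave 10 to 27, 0 to 10 and 5 to 25. Of the listed genes outside the 100, 73 were called in deposited FPKM, 0 with the averaging and 127 to 138 with 1 library left out. The rule found 59 of the 100 members again among genes that averaged 5 FPKM or more, 68 in deposited FPKM, and 62 to 100 with 1 library left out.

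With a replicate block the counts were 15, 4 and 11, and 136 for the listed genes. The labels do not say what a number marks, and the numbers were not taken to pair the samples because 11 of 18 pairs of libraries with the same number, not all, had a correlation of deviations over 0.1 (-0.0405 to 0.402). A library correlated best with its own number in 27 of 36 cases, a hint of pairing from the data.

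FPKM hold no read counts per gene. Low values, under 1 in up to 31 members outside FW33K, thus have no counting error, and fold changes against them are uncertain. The causes of the changes with averaging and scaling were not tested.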
